A study of Homo sapiens with 12 samples.

Results

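CEACAM1, CEACAM5, CEACAM6, SLPI, PI3, WFDC2, LCN2, PIGR, LYPD1 and RNASE7 encode cell-surface proteins, the CEACAM adhesion molecules among them, and secreted defence proteins of lining epithelia. They are 10 of 20003 genes in the deposited expression table. The 10 were picked by name with the ZNF263-against-control values of these libraries already known. The changes given below are therefore a description, carry no test of these genes, and are not evidence about the group as such.

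RNA-seq was done on 3 established human lung adenocarcinoma lines, labelled PC9, HCC827 and H1975, which are known to carry activating mutations of EGFR, the receptor that osimertinib inhibits. In each line, cells with a vector expressing ZNF263, a zinc finger transcription factor, were set against cells with a control vector. Each of the 6 groups held 2 libraries, which gave 12 libraries in all. The cells of every group, control groups included, had been through a stepwise exposure to osimertinib in DMEM, so no group stands for drug-naive cells. The titles add OR to each line's name without explaining it. Nothing in the labels says that the 2 libraries of a group came from separate cultures, so the spread between them may be technical, and neither the promoter of the vector nor the number of clones is given.

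CEACAMs are immunoglobulin-like adhesion molecules of the epithelial surface; CEACAM5 and CEACAM6 are held by a lipid anchor, whereas CEACAM1 spans the membrane and can signal through its tail. SLPI, elafin (the product of PI3) and WFDC2 are small secreted proteins with the WAP fold, and the first of these and elafin inhibit neutrophil elastase. Lipocalin 2, the product of LCN2, withholds iron from bacteria by binding their siderophores, PIGR carries polymeric immunoglobulins across the epithelium, and RNASE7 encodes an antimicrobial ribonuclease. LYPD1 belongs to the Ly6/uPAR family of three-finger surface proteins.

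The 3 CEACAM genes lie on chromosome 19 of GRCh38 in GENCODE 29: CEACAM5 at chr19:41708585-41729798 and CEACAM6 at chr19:41750977-41772208, both on the plus strand and 21.2 kb apart, and CEACAM1 at chr19:42507304-42561234 on the minus strand, 735.1 kb beyond CEACAM6. They are close relatives in sequence, and the 250 bases before their RefSeq starts are shown first because the 3 genes behaved differently within HCC827. The promoters of LCN2 and RNASE7 are shown beside them as the genes with opposite changes in H1975. The stretches, from RefSeq with build GRCh38.p14, are chr19:41755280-41755529 (plus strand) for CEACAM6, chr19:41708376-41708625 (plus strand) for CEACAM5, chr19:42528482-42528731 (minus strand) for CEACAM1, chr9:128149203-128149452 (plus strand) for LCN2 and chr14:21042112-21042361 (plus strand) for RNASE7. The CEACAM6, CEACAM1 and LCN2 windows lie within the GENCODE spans of those genes, which begin farther upstream, and the CEACAM5 and RNASE7 windows run partly into theirs. Each is written from 5′ to 3′ on the strand of its gene. Capitals mark GGAGGA, the core of the known ZNF263 motif, or TGANTCA on either strand. TGANTCA, with any base at N, is a string wider than the AP-1 motif, so a match need not be an AP-1 motif.
CEACAM6: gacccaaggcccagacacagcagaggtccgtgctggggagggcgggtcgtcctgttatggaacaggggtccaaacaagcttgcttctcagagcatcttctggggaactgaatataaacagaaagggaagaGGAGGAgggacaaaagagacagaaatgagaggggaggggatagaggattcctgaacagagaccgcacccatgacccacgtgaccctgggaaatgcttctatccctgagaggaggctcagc
CEACAM5: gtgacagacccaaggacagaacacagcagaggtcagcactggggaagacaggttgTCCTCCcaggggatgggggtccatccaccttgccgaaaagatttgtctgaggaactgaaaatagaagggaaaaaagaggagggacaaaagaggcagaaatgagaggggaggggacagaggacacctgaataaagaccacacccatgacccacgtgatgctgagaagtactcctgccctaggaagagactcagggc
CEACAM1: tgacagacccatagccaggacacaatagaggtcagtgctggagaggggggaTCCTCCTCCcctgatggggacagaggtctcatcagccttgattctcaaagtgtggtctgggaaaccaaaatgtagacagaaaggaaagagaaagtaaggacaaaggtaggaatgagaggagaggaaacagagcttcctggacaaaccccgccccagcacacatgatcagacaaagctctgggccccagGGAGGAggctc
LCN2: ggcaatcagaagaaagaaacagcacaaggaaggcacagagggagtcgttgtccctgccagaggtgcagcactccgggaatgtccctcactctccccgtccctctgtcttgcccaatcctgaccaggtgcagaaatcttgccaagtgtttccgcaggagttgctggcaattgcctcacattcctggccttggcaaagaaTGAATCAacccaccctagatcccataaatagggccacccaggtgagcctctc
RNASE7: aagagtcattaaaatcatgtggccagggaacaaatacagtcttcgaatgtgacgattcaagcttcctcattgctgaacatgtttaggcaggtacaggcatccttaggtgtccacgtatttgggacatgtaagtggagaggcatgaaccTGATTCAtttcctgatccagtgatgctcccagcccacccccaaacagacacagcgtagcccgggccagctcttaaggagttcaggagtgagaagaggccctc

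In a global alignment, 74.6% of the aligned columns of the CEACAM6 and CEACAM5 promoters were identical, 68.2% for CEACAM6 and CEACAM1, and 66.2% for CEACAM5 and CEACAM1. An alignment of CEACAM6 with the unrelated LCN2 promoter gave 50.7%. GGAGGA occurred once in the CEACAM5 and CEACAM6 windows and 3 times in that of CEACAM1, where a pair of matches overlap. The only other match among the genes with a promoter sequence was in PIGR, so 4 of the 9 windows of 8 genes held it, against 31.8% of the 35116 promoter windows of the same length. TGANTCA occurred in LCN2, RNASE7 and LYPD1, 3 of the 9 windows, against 6.6% of all windows; LYPD1 has 2 windows, 1 of them with the motif. The motifs do not overlap each other in these windows, and a match is a string of letters, not a binding site. SLPI and PI3 are named without a promoter sequence.

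Expression was deposited as FPKM, fragments scaled by gene length and library size. Depth was read from the steps of the values, since a gene's values in a library are whole multiples of the worth of 1 read. For a gene of median length, 1 FPKM stood for 70.5 to 80.4 reads in the PC9 libraries, 65.3 to 68.4 in HCC827 and 119.9 to 129.6 in H1975. Reads per gene are given below where they are few, and they cover counting error only. Entries without values number 0 in PC9, 3410 in HCC827 and 3366 in H1975, so the columns of the lines may have been made separately, and levels of different lines are set side by side only as a description. ZNF263 itself was at 39.3 and 39.0 FPKM with its vector, against 9.55 and 9.11 FPKM with the control vector, in PC9. It was at 19.6 and 19.8 FPKM against 13.2 and 11.8 FPKM in HCC827, and at 39.1 and 39.8 FPKM against 10.2 and 9.63 FPKM in H1975. Its log2 change was smallest in HCC827, at 0.62, beside 1.96 in PC9 and 1.89 in H1975.

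The epithelial label was checked on 17 epithelial identity genes. In every PC9 library 4 of the 17 reached 1 FPKM, against 15 to 17 in the libraries of the other lines, and EPCAM, the pan-epithelial adhesion molecule, averaged 0.251 ± 0.0383 FPKM with ZNF263 and 0.291 ± 0.173 FPKM in control (SD, n = 2 each). That these libraries are PC9 rests on their labels and was not tested. In PC9, 3 of the 17 were called higher with ZNF263 and 0 lower: CDH1, the epithelial cadherin (0.99; limma adjusted p = 1.52e-06), and the keratin genes KRT8 (0.62; limma adjusted p = 7.36e-05) and KRT18 (0.65; limma adjusted p = 4.47e-05). The summed level of the list in PC9 was 4193 and 3959 FPKM with ZNF263, against 2786 and 2810 FPKM in control. In HCC827, 3 were called higher and 2 lower. In H1975, 16 of the 17 were called lower with ZNF263 and 1 higher, with a median log2 change of -2.11 against 0.0025 over all genes tested. EPCAM averaged 31.7 ± 0.714 FPKM with ZNF263 and 224.7 ± 6.83 FPKM in H1975 control (SD, n = 2 each), a log2 change of -2.79 ± 0.075 (SE; limma adjusted p = 1.71e-11). CDH1 changed by -2.23 there (limma adjusted p = 3.83e-11). In such bulk libraries fewer cells of a type and less RNA per cell cannot be told apart. The changes in PC9 and H1975 given below stand beside these values, whose part in them was not tested.

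Changes were computed on log2(FPKM + 1) with limma and are given as ZNF263 minus control with their SE. This scale understates the change of genes with low values. The SE pools the spread of all 12 libraries, also those of lines without the gene, and may differ from the spread within the line it is given for. A gene was called where its adjusted p over all genes tested in that line was under 0.05. For the 10 genes a call only marks the side of this threshold and is not a test, since these contrasts were used to pick them. Of the 10 genes, 8 reached 1 FPKM in at least 2 of the 12 libraries and entered the fit; PI3 and PIGR did not. In PC9, 4 of the 8 were called higher and 0 lower, where 11.3% of 12623 genes were called, 7.21% higher and 4.12% lower. In HCC827, 3 were called higher and 1 lower, where 19.5% of 12266 genes were called, 13.0% higher and 6.44% lower. That split turns on the scaling, since 66.9% of the HCC827 calls were higher as deposited, 45.0% after median-of-ratios scaling and 50.5% after quantile normalization. In H1975, 2 were called higher and 3 lower, where 64.2% of 12258 genes were called, 32.1% higher and 32.1% lower. Among genes in the fit, a change is stated below where 1 of the groups had at least 20 reads in each library, which held for 17 pairs of gene and line. Because the choice of the genes used these contrasts, nothing is read from the counts.

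**Figure D1:**
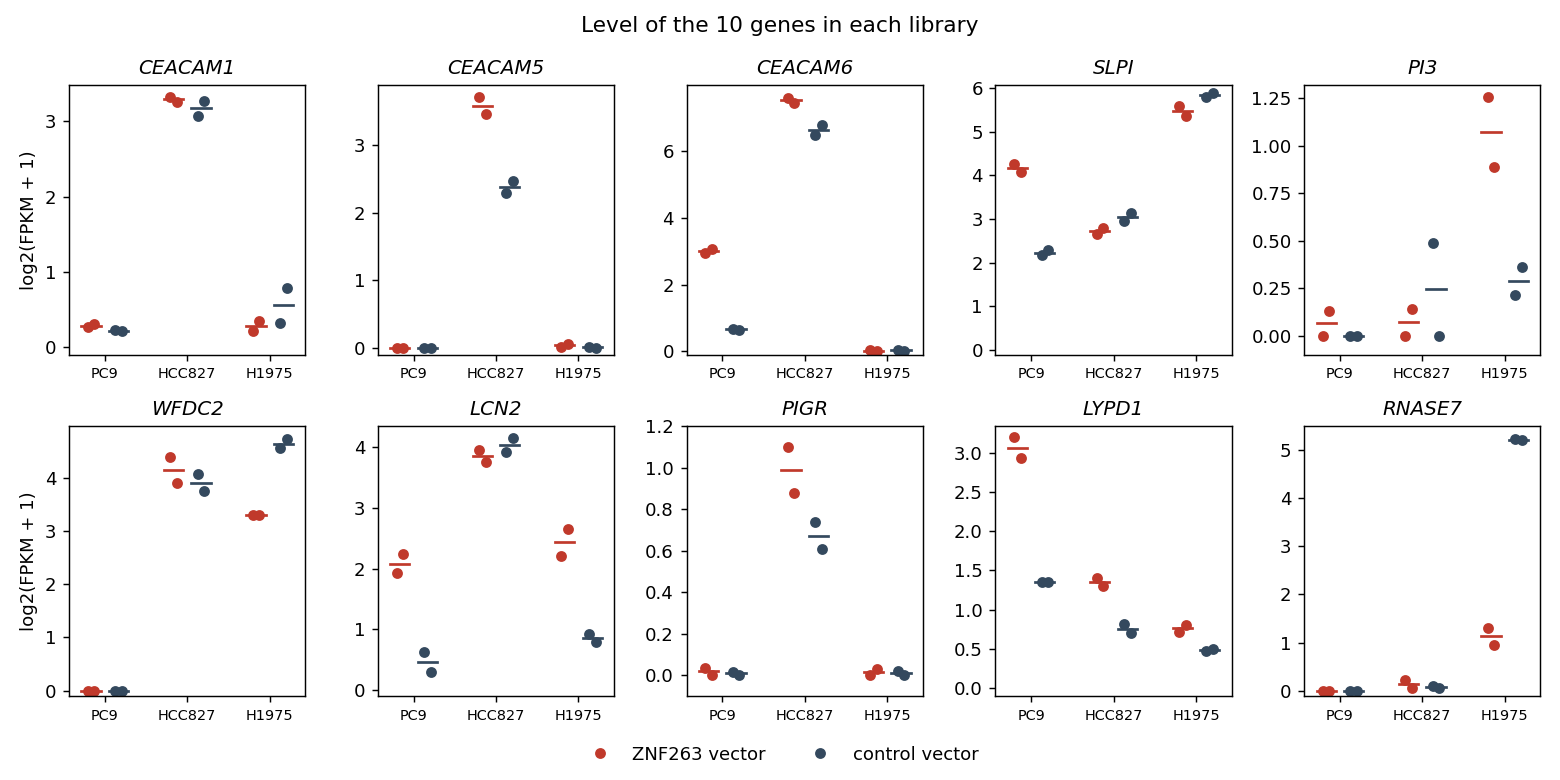
Level of each gene in each library as log2(FPKM + 1) (y axis, scaled separately per gene), by line (x axis), with ZNF263 libraries in red left of control libraries in blue; points are libraries and lines are means of 2. CEACAM6, SLPI, LCN2 and LYPD1 lie higher with ZNF263 in PC9, CEACAM5 and CEACAM6 in HCC827, and RNASE7 and WFDC2 lie lower with ZNF263 in H1975.

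Among the adhesion molecules, CEACAM6 was the gene of the 10 with the largest change in PC9 and the highest level in HCC827. In PC9 it was at 6.75 and 7.44 FPKM with ZNF263, against 0.604 and 0.556 FPKM in control, which rests on 320 and 365 reads against 31 and 30. The groups lay far apart, by 12.2-fold between their means, and the log2 change of 2.36 ± 0.094 ranked second from the highest of 12623 genes. In HCC827 it was at 193.5 and 173.6 FPKM with ZNF263, against 88.4 and 109.1 FPKM in control. There the groups did not overlap either, but the fold between means was 1.86 and the log2 change 0.89 ± 0.094, with rank 27 of 12266. The gain in PC9 exceeded that in HCC827 by 1.46 ± 0.13 on the log2 scale. In FPKM, though, the gain was larger in HCC827, whose control level was the higher. H1975 held at most 3 reads of CEACAM6 in any library, so no change is given for that line.

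Next to it, CEACAM5, which encodes the carcinoembryonic antigen used as a serum tumour marker, was expressed in HCC827. It was at 12.1 and 10.001 FPKM with ZNF263, against 3.89 and 4.53 FPKM in control, from 746 and 619 reads against 246 and 273. The groups did not overlap, the fold between means was 2.62, and the log2 change of 1.21 ± 0.087 ranked eighth from the highest of 12266 genes. All 4 PC9 libraries were at 0 for CEACAM5, which allows at most 0.0408 to 0.0465 FPKM per library at 3 reads. In H1975 there were at most 5 reads. So the neighbour of CEACAM6 was not detected in the PC9 libraries in which CEACAM6 was 12.2-fold higher with ZNF263.

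CEACAM1 differed from both. In HCC827 it was at 9.04 and 8.55 FPKM with ZNF263, against 7.42 and 8.63 FPKM in control. The groups overlapped, and the log2 change of 0.12 ± 0.12 was not called. In H1975 it was at 0.164 and 0.269 FPKM with ZNF263, against 0.251 and 0.725 FPKM in control. These groups overlapped as well, with 1 control library far above the other, and the change of -0.27 ± 0.12 was not called. That change rests on the control libraries: it was -0.51, and called, without the lower of them, -0.041 without the higher, and -0.098 less the median of neighbouring genes. In PC9 the gene had 13 and 16 reads with ZNF263 against 12 and 12 in control, too few for a stated change.

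Within HCC827 the proportions of the 3 CEACAM transcripts therefore shifted. CEACAM5 stood at 1.34 and 1.17 times the FPKM of CEACAM1 with ZNF263, against 0.525 and 0.524 times in control. CEACAM6 stood at 16.0 and 17.4 times the FPKM of CEACAM5 with ZNF263, against 22.7 and 24.1 times in control, so CEACAM5 gained on both relatives. The counting tool's treatment of reads shared between these relatives is not given. Of the 50-base stretches of the longest coding transcript, 19.96% for CEACAM5, 7.92% for CEACAM6 and 4.15% for CEACAM1 occur in another gene. For CEACAM5 and CEACAM6 the gene sharing most stretches is AC243967.1, an annotated gene that overlaps both on the same strand. It holds 18.51% of the stretches of CEACAM5 and 4.22% of those of CEACAM6. For CEACAM1 the gene sharing most stretches is CEACAM3, with 2.31%. These shares do not measure the error of a level, so the levels and ratios of the CEACAM genes are uncertain by an amount not known here.

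Among the WAP proteins, SLPI, at chr20:45252239-45254564 on the minus strand, changed in opposite directions between lines. In PC9 it was at 18.2 and 15.8 FPKM with ZNF263, against 3.49 and 3.88 FPKM in control, from 197 and 177 reads against 41 and 48. The groups lay 4.60-fold apart, and the log2 change of 1.94 ± 0.095 had rank 5 from the highest. In HCC827 SLPI was at 5.33 and 5.98 FPKM with ZNF263, against 6.78 and 7.79 FPKM in control. The ZNF263 libraries were both lower, with a change of -0.32 ± 0.095 that was called but rested on 56 and 63 reads against 73 and 80; without the first ZNF263 library it was -0.25, and without the second control library -0.23, and in neither case called. In H1975, the line with most SLPI, it was at 46.7 and 40.1 FPKM with ZNF263, against 54.2 and 57.9 FPKM in control. The groups did not overlap, and the change was -0.36 ± 0.095 (called), or -0.26 and not called without the second ZNF263 library. The change in PC9 exceeded that in HCC827 by 2.25 ± 0.13 and that in H1975 by 2.30 ± 0.13, while those of HCC827 and H1975 were 0.048 ± 0.13 apart.

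WFDC2, whose product HE4 is a serum marker of ovarian cancer, lies at chr20:45469706-45481532 on the plus strand, 215.1 kb from SLPI. In H1975 it was at 8.89 and 8.83 FPKM with ZNF263, against 22.6 and 25.8 FPKM in control, from 171 reads in each ZNF263 library against 442 and 466. The groups were well apart, control being 2.73-fold over ZNF263, with a log2 change of -1.35 ± 0.14. In HCC827 it was at 20.02 and 14.0 FPKM with ZNF263, against 15.8 and 12.5 FPKM in control. Those groups overlapped and the change of 0.24 ± 0.14 was not called. It depends on the library: it was -0.0097 without the first ZNF263 library and 0.48, called, without the second. PC9 was at 0 for WFDC2 in all 4 libraries, so whether it followed SLPI in that line cannot be seen. Between WFDC2 and SLPI, SLPI stood at 5.26 and 4.55 times the FPKM of WFDC2 in H1975 with ZNF263, against 2.40 and 2.25 times in control.

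PI3, at chr20:45174876-45176544 on the plus strand and 75.7 kb from SLPI, was near the limit of detection. In H1975 it was at 1.39 and 0.850 FPKM with ZNF263, against 0.158 and 0.284 FPKM in control, from 26 and 16 reads against 3 and 5. Both ZNF263 libraries were higher, but with 16 reads in one of them PI3 misses the read minimum and the fit, and no change is stated. In PC9 it had at most 1 read, and in HCC827 at most 1 read with ZNF263 against at most 4 in control.

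LCN2, at chr9:128149071-128153455 on the plus strand, was higher with ZNF263 in both lines in which its control level was low. In PC9 it was at 2.80 and 3.71 FPKM with ZNF263, against 0.541 and 0.228 FPKM in control, from 43 and 59 reads against 9 and 4. The groups lay 8.46-fold apart between means, and the log2 change of 1.62 ± 0.16 ranked 10 from the highest. In H1975 it was at 3.63 and 5.32 FPKM with ZNF263, against 0.884 and 0.726 FPKM in control. That was 5.56-fold between means with a log2 change of 1.58 ± 0.16. On the log2(FPKM + 1) scale, which understates changes at low values, it differed from the change in PC9 by 0.035 ± 0.22. The folds between means, 8.46 and 5.56, were less alike. In HCC827 LCN2 was at 14.6 and 12.6 FPKM with ZNF263, against 14.1 and 16.9 FPKM in control. There the groups overlapped and the change of -0.18 ± 0.16 was not called. In H1975, where SLPI, WFDC2 and RNASE7 were lower with ZNF263, LCN2 was higher.

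PIGR, at chr1:206928518-206946466 on the minus strand, was detected above a few reads only in HCC827. It was at 1.14 and 0.839 FPKM with ZNF263, against 0.667 and 0.524 FPKM in control, from 87 and 64 reads against 52 and 39. The groups did not overlap, with 1.66-fold between means and no fit. The other lines had at most 3 reads in any library.

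LYPD1 was called higher with ZNF263 in each line. In PC9 it was at 8.19 and 6.62 FPKM with ZNF263, against 1.55 FPKM in both control libraries, from 677 and 566 reads against 139 and 146. The fold between means was 4.77 and the log2 change 1.71 ± 0.091, eighth from the highest. In HCC827 it was at 1.65 and 1.46 FPKM with ZNF263, against 0.762 and 0.624 FPKM in control, a change of 0.59 ± 0.091. In H1975 it was at 0.641 and 0.747 FPKM with ZNF263, against 0.384 and 0.415 FPKM in control. The groups did not overlap in any line, but the change in H1975, 0.27 ± 0.091, was no longer called without the second ZNF263 library (0.23) or without the first control library (0.26). The change in PC9 exceeded that in HCC827 by 1.12 ± 0.13, and the change in HCC827 exceeded that in H1975 by 0.32 ± 0.13. LYPD1, at chr2:132644853-132671579 on the minus strand, overlaps GPR39 on the other strand. GPR39 changed by -0.078 ± 0.081 in PC9 (limma adjusted p = 0.627) and by -0.21 ± 0.081 in HCC827 (limma adjusted p = 0.0913). H1975 held it at 4.87 and 4.43 FPKM with ZNF263, against 3.84 and 3.15 FPKM in control, a change of 0.33 ± 0.081 (limma adjusted p = 0.00274) in the direction of LYPD1 there. How reads of the overlap were counted is not given, so reads from the overlap of these genes cannot be told apart in any line.

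RNASE7 showed the largest change of the 10 genes. In H1975 it was at 1.47 and 0.946 FPKM with ZNF263, against 36.4 and 35.6 FPKM in control, from 68 and 44 reads against 1711 and 1547. Control was 29.8-fold over ZNF263, and the log2 change of -4.08 ± 0.099 was the lowest of the 12258 genes tested. All 4 PC9 libraries were at 0 and HCC827 had at most 4 reads, so its values come from H1975. It lies at chr14:21042226-21044234 on the plus strand and overlaps NDRG2 on the minus strand. NDRG2, in H1975, was at 5.18 and 4.82 FPKM with ZNF263, against 0.588 and 0.799 FPKM in control, a log2 change of 1.83 ± 0.12 (limma adjusted p = 3.07e-08). Both neighbours moved in opposite directions, and with no strand setting given, reads from the overlap cannot be told apart.

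**Figure D2:**
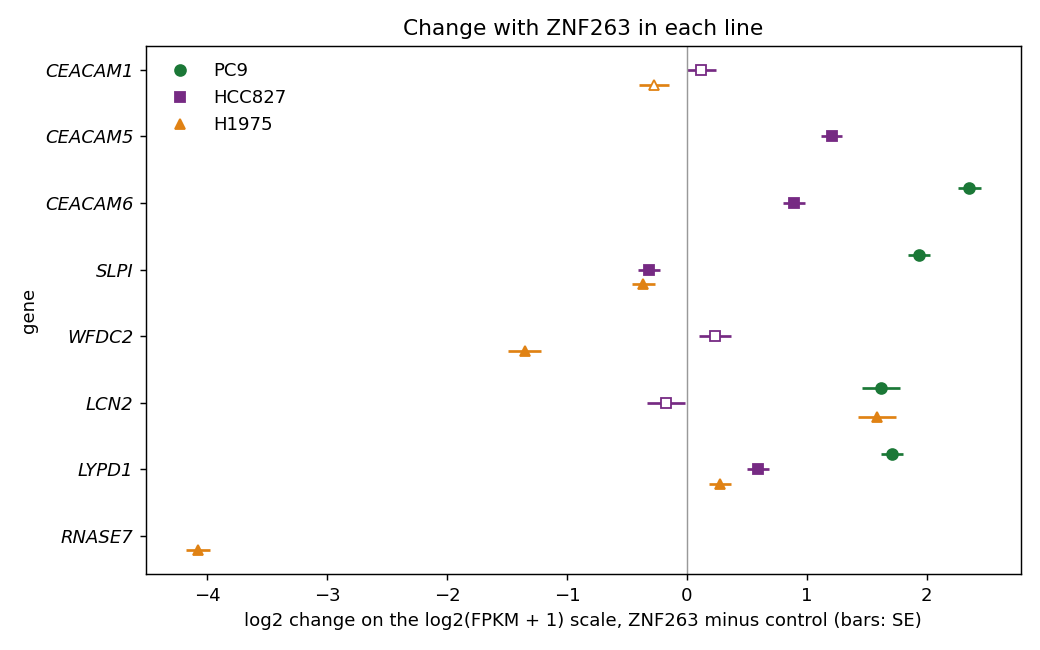
Log2 change (x axis, ZNF263 minus control on the log2(FPKM + 1) scale, bars SE) for the 17 stated pairs of gene (y axis) and line, with filled symbols called and open symbols not called. All 4 PC9 changes exceed 1.6, HCC827 lies between -0.32 and 1.21, and H1975 spans -4.08 to 1.58.

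The lines thus differed in which of the 10 genes they expressed. In control libraries CEACAM6 was ordered HCC827, PC9, H1975, with each line outside the range of the next. SLPI was ordered H1975, HCC827, PC9, again without overlap of the control libraries. LCN2 was highest in HCC827 control, and its control libraries in H1975 (0.884 and 0.726 FPKM) and PC9 (0.541 and 0.228 FPKM) were both low. RNASE7 had 36.4 and 35.6 FPKM in H1975 control and at most 2 reads in control libraries of the other lines.

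Summed over the 10 genes, PC9 held 36.1 and 33.9 FPKM with ZNF263, against 6.37 and 6.38 FPKM in control. HCC827 held 257.5 and 227.1 FPKM with ZNF263, against 138.3 and 160.6 FPKM in control. H1975 held 62.9 and 57.2 FPKM with ZNF263, against 114.9 and 121.4 FPKM in control, so its sum was lower with ZNF263. CEACAM6 made up 75.1% and 76.4% of the sum in HCC827 with ZNF263, against 63.9% and 67.9% in control. SLPI made up 74.2% and 70.2% of the sum in H1975 with ZNF263, against 47.1% and 47.7% in control, although its own level was lower. RNASE7 held 2.34% and 1.65% of the sum in H1975 with ZNF263, against 31.7% and 29.3% in control.

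**Figure D3:**
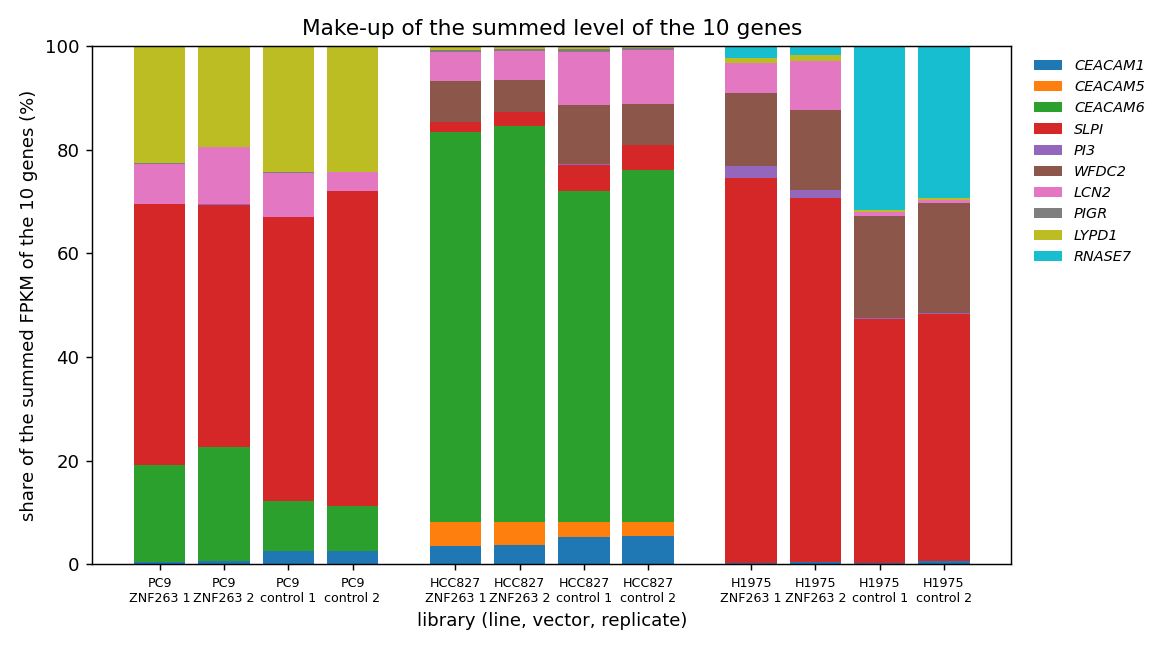
Share of each gene in the summed FPKM of the 10 genes (y axis, percent) in each of the 12 libraries (x axis, ZNF263 libraries left of control libraries in each line). CEACAM6 takes most of HCC827, and the RNASE7 share falls to 2.34% and 1.65% in H1975 ZNF263 libraries, against 31.7% and 29.3% in control libraries.

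The changes were set against those of the tested genes whose starts lie within 2 Mb. Around CEACAM6 the median change of neighbours was 0.02 in PC9 (66 genes) and 0.016 in HCC827 (65 genes), and around SLPI it was -0.125 in H1975 (45 genes). Less these medians, CEACAM6 was at 2.34 in PC9, 0.88 in HCC827, and SLPI at -0.24 in H1975. RNASE7 less its 34 neighbours was at -4.12 in H1975. No called change of the 10 genes turned its direction by this subtraction.

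**Figure D4:**
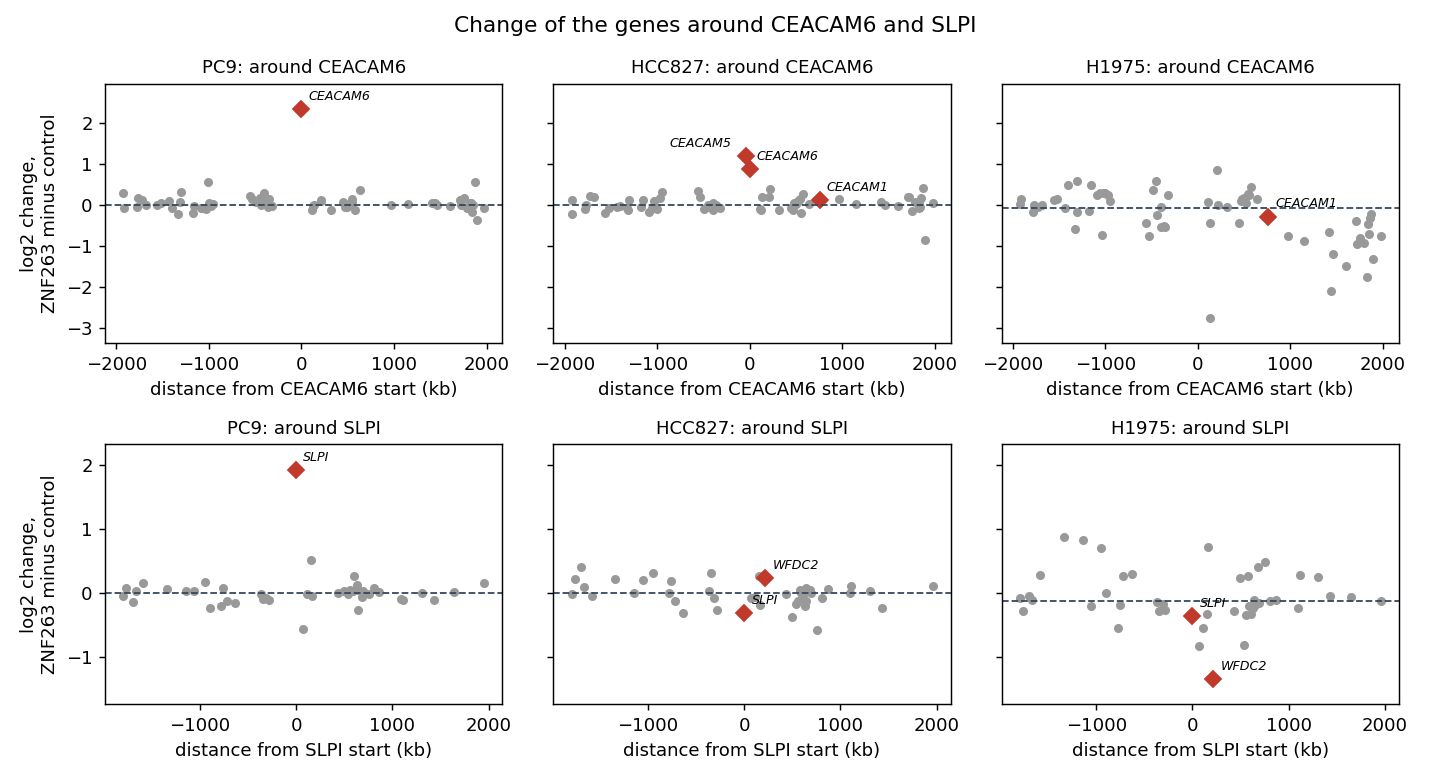
Log2 change (y axis, ZNF263 minus control) of genes within 2 Mb of the CEACAM6 start (top) and the SLPI start (bottom) by distance in kb (x axis) in each line; red diamonds are genes of the 10 with a stated change, grey points other tested genes, and the dashed line the neighbours' median. In PC9, CEACAM6 at 2.36 and SLPI at 1.94 lie above all grey points.

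Likeness of pattern was measured by Pearson's r over the 12 libraries after each line's mean was removed, among 12218 genes. These 12 points share the 3 lines and 6 groups, so r mostly restates which line changed. CEACAM6 was most like MUC5B, the airway gel mucin (r = 0.991), then PDZD2 and RNF150. LYPD1 was most like ARHGAP23 (r = 0.983), with MUC5B next. Between CEACAM6 and LYPD1 themselves r was 0.968, and between CEACAM6 and SLPI 0.84. CEACAM5 was most like SFTPA1, a surfactant protein gene (r = 0.993), then PLEKHS1 and LMO3. SLPI was most like KCNK1 (r = 0.978), TESC and GFRA1, and LCN2 most like ALPK2 (r = 0.975), GRAMD1B and ITPR3. WFDC2 was most like EPPK1 (r = 0.990) and RNASE7 most like HCAR1 (r = 0.999), while WFDC2 and RNASE7 had r = 0.947 with each other. LCN2 and RNASE7 had r = -0.687.

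The families of the 10 genes were counted as whole lists. Over all genes tested, 7.21% were called higher and 4.12% lower in PC9, and 13.0% and 6.44% in HCC827. In H1975 32.1% were called higher and 32.1% lower. Nothing is read from the counts of these lists. Of 24 other WAP and airway antiprotease genes, 16 were tested; in PC9 0 were called higher and 1 lower, in HCC827 1 higher and 3 lower, and in H1975 4 higher and 10 lower. SPINK1, a trypsin inhibitor gene, was at 1.86 and 1.35 FPKM with ZNF263, against 35.7 and 32.8 FPKM in control, in H1975, a change of -3.76 ± 0.13 (limma adjusted p = 1.31e-10). SPINT1, which encodes the inhibitor HAI-1, was at 10.4 and 10.2 FPKM with ZNF263, against 61.4 and 61.7 FPKM in control, in the same line. CST6, which encodes cystatin M, changed by -0.62 ± 0.075 in HCC827 (limma adjusted p = 0.000182). SLPI was called higher in PC9 and 0 of the listed genes were. In each PC9 library, though, 7 of the 24 listed genes reached 1 FPKM, and WFDC2 was at 0. For genes below that level the absence of a call says nothing of their response, so SLPI is not shown to stand apart.

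Of the other CEACAM and pregnancy-specific glycoprotein genes, 6 were tested in PC9 with 1 called higher and 0 lower, 5 in HCC827 with 0 called, and 6 in H1975 with all 6 lower and a median change of -0.998. CEACAM19 changed by 0.35 ± 0.084 in PC9 (limma adjusted p = 0.0166), and PSG9 by -1.19 ± 0.079 in H1975 (limma adjusted p = 3.65e-08). In HCC827 none of the listed genes reached 1 FPKM in any library, and those tested had passed the filter through other lines. The absence of calls there thus says nothing of their response. In PC9, 1 of the 18 listed genes reached 1 FPKM in each library, and the same holds for the others there.

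Of 37 other epithelial antimicrobial genes, 7 were tested. Of these, 1 was called higher and 0 lower in PC9, 0 higher and 1 lower in HCC827, and 2 higher and 3 lower in H1975. Only 2 or 3 of the 37 reached 1 FPKM in a PC9 library, and 3 or 4 in an HCC827 library. For genes below that level the absence of a call says nothing of their response. DEFB1, an epithelial beta-defensin, was at 16.1 and 18.5 FPKM with ZNF263, against 7.35 and 8.33 FPKM in control, in PC9 (limma adjusted p = 0.000478). In H1975 it changed by -1.54 ± 0.15 (limma adjusted p = 1.02e-06). CHI3L1, a secreted chitinase-like lectin, changed by 3.51 ± 0.11 in H1975 (limma adjusted p = 4.8e-11). Of 8 other RNase A genes, 4 were tested, with 1 called higher in PC9, 1 higher in HCC827, and 2 higher and 1 lower in H1975. RNASE4 was higher with ZNF263 in H1975, by 1.37 ± 0.069 (limma adjusted p = 2.92e-09), and RNASE1 changed by -0.89 ± 0.092 (limma adjusted p = 2.34e-06). The fall of RNASE7 was not shared by RNASE4.

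Of 20 other Ly6/uPAR genes, 10 were tested; 0 were called higher and 1 lower in PC9, 2 higher and 2 lower in HCC827, and 2 higher and 7 lower in H1975. PLAUR, the urokinase receptor gene, was called lower in all 3 lines. Its change was -0.36 ± 0.082 in PC9 (limma adjusted p = 0.0119), -0.85 ± 0.082 for HCC827 (3.38e-05) and -1.31 ± 0.082 for H1975 (2.09e-08). LYPD1 was called higher in each of them. LY6D changed by 0.87 ± 0.16 in HCC827 (limma adjusted p = 0.00283) and LY6K by -1.69 ± 0.083 in H1975 (limma adjusted p = 2.35e-09). Of 14 other lipocalins, 4 were tested in PC9 and 3 in each other line, with 0 called in PC9 and HCC827, and 1 higher and 1 lower in H1975. Only 1 of the 14 reached 1 FPKM in each PC9 library, and 1 or 2 in an HCC827 library. Of the 20 Ly6/uPAR genes, 3 or 4 did so in a PC9 library. For genes below that level the absence of a call says nothing of their response. Of 26 immunoglobulin transport and mucosal receptor genes, 19 were tested, with 1 called higher and 1 lower in PC9, 3 higher and 0 lower in HCC827, and 12 higher and 5 lower in H1975.

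Of 24 secretory and goblet cell markers, 14 were tested in PC9 with 7 called higher and 0 lower, and a median change of 0.26. In HCC827 12 were tested, with 6 higher and 1 lower and a median of 0.36. In H1975 14 were tested, with 3 higher and 8 lower and a median of -0.30. MUC5B was at 16.4 and 16.2 FPKM with ZNF263, against 2.21 and 2.50 FPKM in control, in PC9 (limma adjusted p = 7.51e-09). MUC5AC, the other gel mucin of airway goblet cells, was at 10.3 and 10.4 FPKM with ZNF263, against 2.60 and 2.70 FPKM in control, in the same line (limma adjusted p = 8.97e-09). In HCC827 AGR2, a chaperone for mucin folding, changed by 0.84 ± 0.09 and the epithelial transcription factor EHF by 0.82 ± 0.073 (limma adjusted p = 6.98e-05 and 1.9e-05). In H1975 EHF changed by -2.13 ± 0.073 (limma adjusted p = 9.97e-11). Among the 3 called higher there were CREB3L1 (1.85 ± 0.083; limma adjusted p = 9.8e-10) and XBP1 (1.47 ± 0.061; limma adjusted p = 5.21e-10). The summed level of the list in H1975 was 186.5 and 182.5 FPKM with ZNF263, against 96.3 and 102.6 FPKM in control. So the sum was higher although more markers were called lower. Over all genes, 11.3% were called in PC9, 19.5% in HCC827 and 64.2% in H1975. The 1 marker lower in HCC827 was XBP1, a transcription factor of secretory cells (-0.38 ± 0.061; limma adjusted p = 0.00115), and MUC5AC was not called there (0.096 ± 0.064; limma adjusted p = 0.324). The part of these markers in the changes of the 10 genes was not tested.

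LCN2, CEACAM1, CEACAM6 and SLPI are also made by neutrophils and other leukocytes. Of 18 immune cell markers, 1 reached 1 FPKM in each PC9 library and 2 in each library of the other lines. Their summed level in PC9 was 3.20 and 3.44 FPKM with ZNF263, against 3.23 and 3.07 FPKM in control. For HCC827 it was 38.4 and 33.1 FPKM with ZNF263, against 44.4 and 44.0 FPKM in control. H1975 had 65.3 and 62.8 FPKM with ZNF263, against 87.7 and 84.8 FPKM in control. Most of it was CD68, a lysosomal gene not confined to macrophages, with 2.75 and 2.66 FPKM with ZNF263 against 2.65 and 2.62 FPKM in control in PC9. PTPRC, the pan-leukocyte gene, was at most 0.0458 FPKM in any library and at 0 in both PC9 ZNF263 libraries. Of these markers 2 were tested, with 0 called in PC9, 1 lower in HCC827 and both lower in H1975. Of 10 ciliated and basal markers 4 were tested, with 1 called higher in PC9, 2 higher in HCC827 and 3 lower in H1975. Of 12 fibroblast and endothelial markers 4 were tested, with 0 called in PC9, 1 higher in HCC827, and 2 higher and 2 lower in H1975.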

How the data were processed

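The authors deposited expression as FPKM, 1 column per library, and the submitters' processing notes name GRCh38.p13. Neither aligner, counting tool, annotation nor strand setting is given in these sources. Of 20030 entries, 27 with date-like names were left out; HCC827 lacked values for 3410 entries and H1975 for 3366. Whole reads were recovered from the FPKM steps for 99.5%, 99.6% and 99.1% of genes in PC9, HCC827 and H1975. They served to give depth and to set the minimum of 20 reads for a stated change, because a few reads per gene bound the precision. Values were analysed as log2(FPKM + 1) in limma 3.58.1 (R 4.3.3), with 6 group means, 1 spread over 12 libraries, a trended prior, a filter of 1 FPKM in 2 libraries and Benjamini-Hochberg adjustment over all genes of a line. The fit was tested on simulated data. Lists, promoters and likeness were handled in Python 3.11.15 with pandas 2.3.3 and biopython 1.88. The genes and lists were chosen with earlier results of these data known. Of the lists' genes, at most 2 called ones with the largest changes per list and line were named, not in every list, beside the 3 nearest by likeness and ZNF263, EPCAM and CDH1; XBP1, KRT8, KRT18, NDRG2 and GPR39 were named after their values were seen. Alternatives covered the pseudocount, filter, scaling, a fit per line, a replicate block, neighbours and each left-out library.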

Additional observations from a re-analysis of the deposited data

Results flagged for a closer look

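SLPI moved one way in PC9 and the other in HCC827 and in H1975, in every library of each line. Its change in PC9 exceeded that in HCC827 by 2.25 on the log2 scale and that in H1975 by 2.30; this difference was not tested, since the gene was picked with these contrasts known.

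For genes outside the 10, limma's F test asked whether the change with ZNF263 varied between the lines. It was run on the genes passing the filter with a value in all 12 libraries, and p was adjusted over those. Most genes below were named for a large called change in a line of the same fit, and only those that passed are listed. The share of all genes that passed is not given. These passes are a description and not separate evidence of a difference between lines. It passed for ZNF263 (5.22e-08), whose gain was smaller in HCC827, for EPCAM (5.24e-10) and for CDH1 (2.08e-10). Among relatives of the adhesion molecules it passed for CEACAM19 (7.1e-07) and PSG9 (1.16e-06). The antiprotease genes SPINK1 (3.08e-09), SPINT1 (7.01e-10) and CST6 (8.6e-09) passed. So did the antimicrobial genes DEFB1 (8.85e-07), higher in PC9 and lower in H1975, and CHI3L1 (1.66e-09). RNASE4 (2.72e-06) and RNASE1 (3.65e-05) passed among the ribonucleases, and PLAUR (5.1e-05), LY6D (1.46e-05) and LY6K (2.24e-07) among the Ly6/uPAR genes. Of the secretory markers, MUC5AC (1.38e-08), MUC5B (1.67e-08), EHF (2.22e-10), AGR2 (4.89e-09) and XBP1 (4.11e-09) passed. The keratin genes KRT8 (0.000539) and KRT18 (8.65e-06) passed, as did NDRG2 (5.79e-06), which overlaps RNASE7, and GPR39 (0.00297), which overlaps LYPD1.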

How the results depend on the processing

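Of the 17 stated changes of the 10 genes, 12 kept direction and side of the threshold under every alternative run. Over 187 alternatives 175 did so, 7 lost the call, 4 gained it and 1 turned direction. These counts describe how the values depend on the processing and are no test of the genes, which were picked with these contrasts known. WFDC2 in HCC827 turned to -0.0097 without the first ZNF263 library and was 0.48, called, without the second; the cause was not tested. SLPI in HCC827 also lost its call without the filter and in a fit of that line alone, with its change the same (-0.32). CEACAM1 in H1975 gained a call with a pseudocount of 0.1 (-0.78) and with the replicate block (-0.27). EPCAM in HCC827 was -0.026 after median-of-ratios scaling and -0.030 less its neighbours, and CDH1 there -0.010 after that scaling, none called. Genes called fell to 407 in PC9 and 634 in HCC827 in fits of 1 line alone, with fewer libraries behind the spread. Leaving out 1 library gave 591 to 854 calls in PC9, 1082 to 3109 in HCC827 and 6886 to 6970 in H1975, and between 3 and 5 of the 10 genes in H1975, 3 being without the second ZNF263 library. The replicate block gave 1364, 2262 and 7850 calls in PC9, HCC827 and H1975; same-numbered libraries had correlated deviations of only 0.037, 0.089 and -0.043, so the numbers were not taken as pairs. Where a gene had 3 reads or fewer in every library, no change was detectable at this depth.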
